A study of Oryza sativa with 14 samples.

Results

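Class III peroxidases are the secreted, plant-specific haem peroxidases that rice carries as a large gene family, numbered with the symbol prx. Members were taken by symbol: a gene counted when its name began with prx or Osprx and a number, in either case of letters, and when its description named no glutathione peroxidase, ascorbate peroxidase or peroxiredoxin. Of 105 genes whose name matched, 1 was left out, OsPRX2, a peroxiredoxin. This left 104 genes of the 38978 in the table of expression values, and the rule itself uses names and descriptions only, though the family was picked for description with earlier results of these data known.

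Class III peroxidases act in the cell wall, the apoplast and the vacuole, where they use hydrogen peroxide to oxidise phenolic compounds. By coupling monolignols and wall phenolics they build lignin and suberin and stiffen the wall, and they can also generate reactive oxygen species that loosen it. In grasses the family is large, much of it lies in runs of neighbouring gene copies, and many members are expressed in roots. The enzymes depend on hydrogen peroxide from NADPH oxidases, superoxide dismutases and germin-type oxalate oxidases, and dirigent proteins and laccases act beside them in wall polymer formation.

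RNA from seedlings of the line labelled osnat10 was compared with RNA from wild type (WT) rice seedlings of the cultivar Kitaake, with 3 RNA-seq libraries per genotype that the submitters call biological replicates. The line is named after N-acetyltransferase 10, which makes N4-acetylcytidine in RNA, and the study asks how this bears on photosynthesis. The labels give neither the allele of osnat10, nor the number of independent lines, nor the age of the plants, and OsNAT10 could not be found by its description in the table, so the targeted gene was not checked here. All plants grew in Yoshida nutrient solution with days of 10 h light and 14 h dark, with no further treatment given. The 8 libraries of the acetylcytidine pull-down assay were not analysed here.

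Recovered depth ran from 13688629 to 15583776 reads per library, and 28577 to 29464 genes had at least 1 read. The WT libraries differed more among themselves than the osnat10 libraries did: the residual SD of log2 levels was 0.228 to 0.262 in the osnat10 libraries and 0.412 to 0.506 in the WT libraries. Over all 24380 genes tested in limma, which are those that reached 0.5 RPKM in 3 or more libraries, 30 genes were higher and 7 lower in osnat10 at an adjusted p under 0.05. Levels are in RPKM, read counts scaled by gene length and library total, and log2 fold changes are those of RPKM + 0.5, osnat10 minus WT, which understates changes of weakly expressed genes.

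Of the 104 peroxidase genes, 5 had no read in any library (prx8, prx21, prx25, prx31 and PRX36), where a count of 0 allows up to 3 reads per library by counting error alone. Another 17 had reads but stayed under the minimum, with no value above 2.44 RPKM in any library. The remaining 82 were tested, 66 of them at 0.5 RPKM or more in all 6 libraries. All 82 had at least 1 library of each genotype at that minimum. Some, such as PRX46, prx48 and prx80, had only 1 WT library there. These were tested because their 3 osnat10 libraries reached it. Levels were uneven. A mean over the 6 libraries of 10 RPKM or more was found for 36 of the 82, of 50 RPKM or more for 9, of 1 to 10 RPKM for 43 and of under 1 RPKM for 3. The 10 most abundant members, which are prx65, prx59, PRX45, prx86, prx95, prx16, prx64, prx71, PRX125 and prx54, together held 50.6% of the family's summed RPKM in osnat10 and 49.8% in WT.

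Taken as a whole, the family held a larger share of the transcriptome in every osnat10 library than in any WT library. All 104 genes together had 46010, 53689 and 52327 reads in osnat10 replicates 1, 2 and 3, against 34664, 33932 and 34791 reads in WT replicates 1, 2 and 3. The family's summed RPKM was 1829, 2044 and 1931 in osnat10, against 1379.6, 1259 and 1223 in WT. As a share of the RPKM of all genes this was 0.355% ± 0.0208 in osnat10 and 0.241% ± 0.00996 in WT (SD, n = 3 each; exact two-sided permutation test p = 0.1, the smallest p that the 20 splits of 3 against 3 libraries can give). The osnat10 and WT shares did not overlap, and their difference of 0.114 percentage points stayed between 0.103 and 0.123 when any 1 library was left out. In bulk seedlings, more cells of a type that expresses these genes and more peroxidase RNA per cell cannot be told apart.

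The difference was found in many members. Mean RPKM was higher in osnat10 for 78 of the 104 genes, against 46.6% of all 38978 genes, and lower for 21, against 36.0%. All 3 osnat10 libraries lay above all 3 WT libraries for 39 of the 104, against 12.0% of all genes, and below them for 4, against 5.66%. With the filter, the same 39 and 4 genes were among the 82 tested, where the shares of all tested genes were 17.2% and 7.79%. The median log2 fold change of the tested members was 0.78, beside 0.11 for all tested genes, and single values ran from -2.51 to 3.36. With libraries rescaled by the median of ratios these medians were 0.67 and 0.01, and after quantile normalisation 0.65 and -0.03. Of the 82 tested members, 67 had a positive log2 fold change, against 59.9% of all tested genes, and 64 did under either rescaling. The mean RPKM was 2-fold or more higher in osnat10 for 23 members, against 7.54% of all tested genes, and 2-fold or more lower for 4, against 4.36%.

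**Figure D1:**
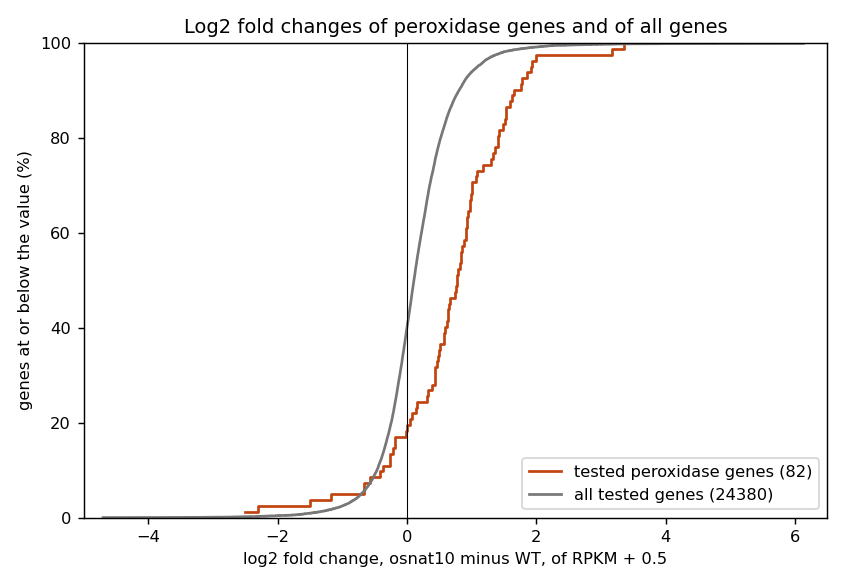
Cumulative distribution of log2 fold changes (osnat10 minus WT, of RPKM + 0.5; horizontal axis) for the 82 tested peroxidase genes and for all 24380 tested genes, with the percentage of genes at or below each value on the vertical axis. The peroxidase curve lies to the right over most of its length, with a median of 0.78 beside 0.11 for all genes, and has a short tail at the left that ends at -2.51.

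No single member passed the test across all genes. In limma, 0 peroxidase genes were called higher, against 0.123% of all tested genes, and 0 were called lower, against 0.0287%. At an unadjusted p under 0.05, 37 members were higher, against 13.6% of all tested genes, and 4 were lower, against 5.69%. The smallest adjusted p of a member in limma was 0.0552. In the authors' deposited table, 91 members had an adjusted p, and 5 of them were higher at an adjusted p under 0.05, against 2.42% of all genes there, and 4 lower, against 3.79%. These are prx127, prx83, prx27, prx102 and prx71 on the higher side, and prx22, prx29, prx57 and prx63 on the lower side, of the authors' deposited table.

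The count of calls turned on single WT libraries. Without WT replicate 1, limma called 23 members higher, against 6.28% of all tested genes, and 3 lower (prx22, prx29 and prx62), against 4.84%. Without WT replicate 3 it called 11 higher, against 3.63%, and 0 lower, against 0.406%. Only 4 members, prx102, prx127, prx27 and prx83, were called in both of these fits. The fits share all osnat10 libraries and WT replicate 2, so they are not independent. How many of all tested genes were called in both was not counted. Without WT replicate 2 limma called 0 members in either direction, against 0.0410% of all tested genes called higher. Without osnat10 replicates 1 and 3 it called 0 in either direction, against 0.0328% and 0.0410% of all tested genes called higher, and without osnat10 replicate 2 it called 1 lower, prx29, the single gene called lower among all tested genes (0.00410%). Why the counts move with these libraries was not tested. With libraries weighted by their spread, limma called 20 members higher, against 3.46% of all tested genes, and 2 lower, against 2.09%, and with a pseudocount of 1 it called 1 higher, prx127, against 0.131%, and 0 lower, against 0.0328%.

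The member with the largest log2 fold change was prx127, annotated only as a plant peroxidase domain protein. It stood at 13.5, 9.17 and 10.0 RPKM in osnat10 replicates 1, 2 and 3, against 1.71, 0.681 and 0 RPKM in WT replicates 1, 2 and 3. All osnat10 libraries were high and no WT library came near them. The WT values rest on 7, 3 and 0 reads, against 55, 39 and 44 reads in osnat10. Its mean was 10.9 ± 2.27 RPKM in osnat10 and 0.797 ± 0.861 in WT (SD, n = 3 each), a log2 fold change of 3.36 (SE 0.51, limma adjusted p = 0.0552).

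Next by p were prx83 and prx27, which differed less in fold but were measured at higher levels. The gene prx83, annotated as a haem peroxidase family protein, stood at 16.7, 16.5 and 18.2 RPKM in osnat10, against 8.21, 4.46 and 4.79 RPKM in WT. The osnat10 libraries were close together, and WT replicate 1, the highest of the WT libraries, lay well below them. Its log2 fold change was 1.53 (SE 0.25, limma adjusted p = 0.0619). The gene prx27, annotated as peroxidase P7, stood at 45.5, 49.2 and 41.5 RPKM in osnat10, against 19.2, 13.7 and 22.8 RPKM in WT. Here WT replicate 3 was the highest WT library, and it lay below every osnat10 library (log2 fold change 1.30, SE 0.21, limma adjusted p = 0.062). The WT library nearest to osnat10 thus differed between prx83 and prx27.

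The abundant gene prx71 stood at 62.4, 77.1 and 70.8 RPKM in osnat10, against 43.0, 27.4 and 35.3 RPKM in WT, with no overlap (log2 fold change 1.00, SE 0.20, limma adjusted p = 0.0854). Weaker members with separated libraries were PRX46, prx102 and prx105. The gene PRX46, annotated as similar to peroxidase 1, stood at 3.66, 2.59 and 2.15 RPKM in osnat10, against 1.34, 0.469 and 0.334 RPKM in WT (log2 fold change 1.51, SE 0.36, limma adjusted p = 0.106). The gene prx102, annotated as similar to peroxidase 7, stood at 6.16, 5.88 and 3.86 RPKM in osnat10, against 1.74, 1.62 and 0.197 RPKM in WT (log2 fold change 1.94, SE 0.47, limma adjusted p = 0.106). For prx102 the low value is WT replicate 3, with WT replicates 1 and 2 at like levels. The gene prx105 stood at 6.12, 4.73 and 4.13 RPKM in osnat10, against 2.82, 1.06 and 0.906 RPKM in WT (log2 fold change 1.49, SE 0.37, limma adjusted p = 0.108). The gene prx43, another with a peroxidase 1 annotation, stood at 28.7, 26.7 and 28.1 RPKM in osnat10, against 16.3, 5.85 and 2.80 RPKM in WT (log2 fold change 2.00, SE 0.51, limma adjusted p = 0.114). Its osnat10 libraries were nearly equal while its WT libraries were spread over a wide range, with WT replicate 1 on top, as in PRX46 and prx105.

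**Figure D2:**
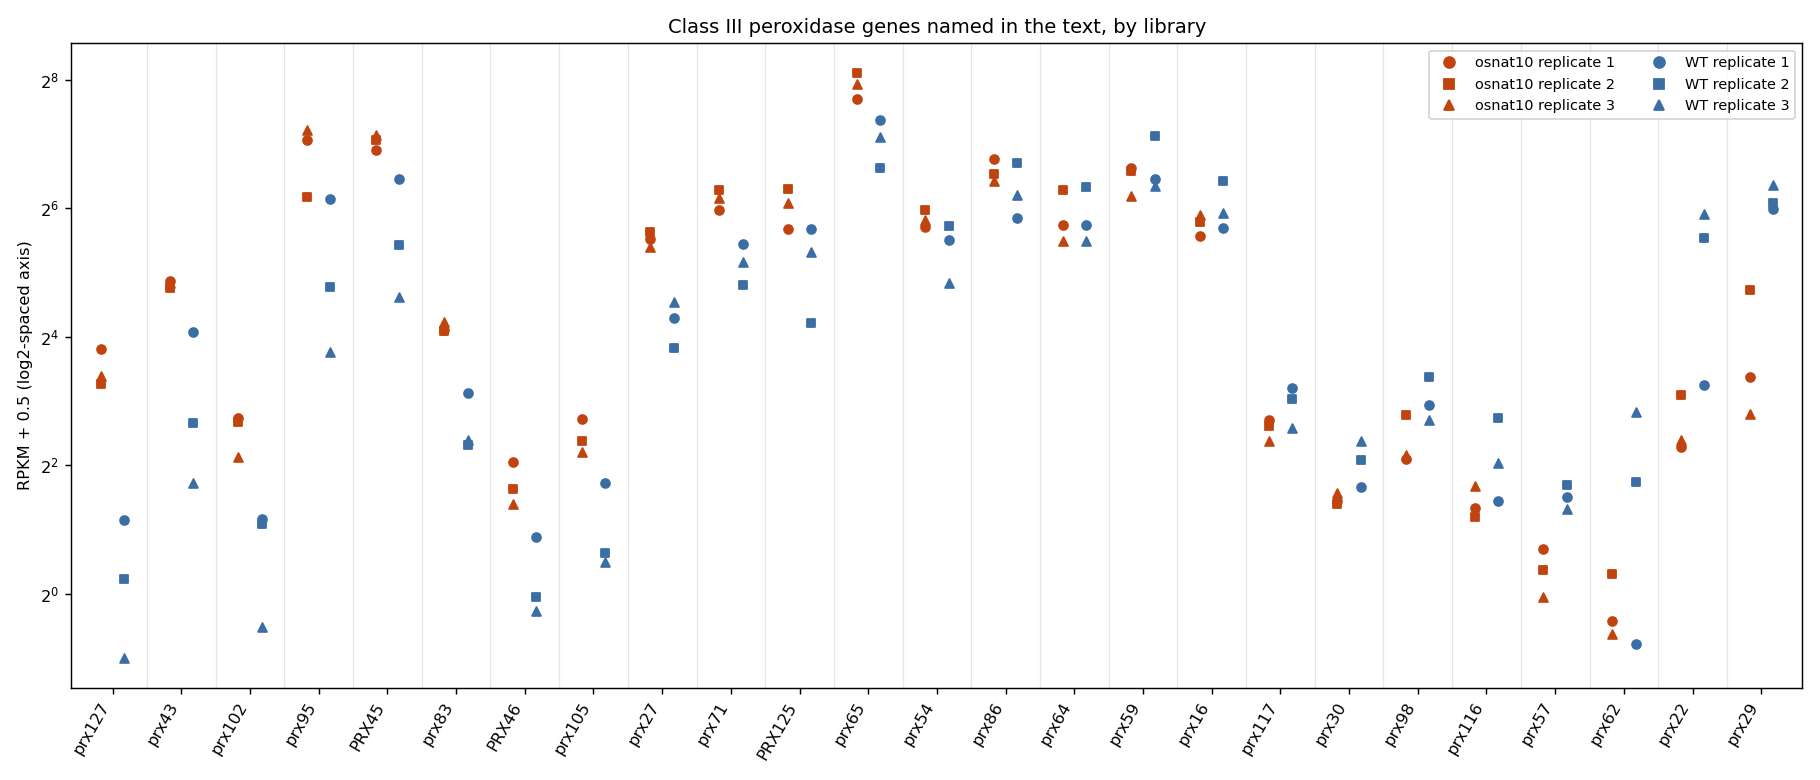
RPKM + 0.5 on a log2-spaced axis for the peroxidase genes named by rule and tested, 1 point per library, osnat10 in red to the left of WT in blue within each gene, genes ordered by log2 fold change; the symbol marks the replicate. From prx127 to prx71 the red points lie above all blue points, from PRX125 to prx117 most genes overlap, and in prx29, prx22 and prx57 the red points lie below all blue points.

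Fewer members lay lower in osnat10, and the clearest of them was prx29. The gene stood at 9.87, 26.1 and 6.46 RPKM in osnat10, against 62.8, 67.3 and 82.2 RPKM in WT. All WT libraries were high and osnat10 replicate 2 was the highest of the low group, with no overlap. Its mean was 14.2 ± 10.5 RPKM in osnat10 and 70.8 ± 10.2 in WT (SD, n = 3 each), a log2 fold change of -2.51 (SE 0.44, limma adjusted p = 0.0715), and without osnat10 replicate 2 the fit over all genes called it. The gene prx22, annotated as similar to peroxidase BP 1, which is known from barley grain, stood at 4.38, 8.04 and 4.78 RPKM in osnat10, against 9.06, 45.8 and 59.4 RPKM in WT (log2 fold change -2.30, SE 0.64, limma adjusted p = 0.128). WT replicate 1 of prx22 was only just above osnat10 replicate 2, far under the other WT libraries. The weakly expressed gene prx57 stood at 1.12, 0.797 and 0.463 RPKM in osnat10, against 2.36, 2.73 and 2.01 RPKM in WT, with no overlap (log2 fold change -1.17, SE 0.28, limma adjusted p = 0.106).

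The other members named on the lower side, prx30, prx98, prx116, prx117 and prx62, had limma adjusted p of 0.251 or more. The gene prx30 stood at 2.22, 2.13 and 2.46 RPKM in osnat10, against 2.68, 3.72 and 4.70 RPKM in WT, which do not overlap by a narrow margin (log2 fold change -0.57, SE 0.26, limma adjusted p = 0.273). For prx98, prx116 and prx117 the libraries of the genotypes overlapped, with log2 fold changes of -0.66, -0.67 and -0.37 and limma adjusted p of 0.251, 0.346 and 0.418. The gene prx117 is annotated as similar to peroxidase 47, which in Arabidopsis takes part in lignification of vessels. The gene prx62 stood at 0.245, 0.746 and 0.152 RPKM in osnat10, against 0.0815, 2.84 and 6.59 RPKM in WT, where replicate 1 was the lowest of the 6 libraries and replicates 2 and 3 the highest (log2 fold change -1.50, SE 0.83, limma adjusted p = 0.36). The untested neighbour of prx62, prx63, had 16, 6 and 5 reads in osnat10 and 11, 105 and 47 reads in WT, so the same pair of WT libraries carried its reads.

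Among the most abundant members, some were higher in osnat10 and others were level. The most abundant, prx65, stood at 208, 276 and 245 RPKM in osnat10, against 166, 98.4 and 137 RPKM in WT, with no overlap (log2 fold change 0.88, SE 0.23, limma adjusted p = 0.121). PRX45 stood at 119, 133 and 141 RPKM in osnat10, against 86.9, 42.6 and 24.2 RPKM in WT, again with no overlap (log2 fold change 1.53, SE 0.41, limma adjusted p = 0.12). The gene prx95 stood at 133, 71.9 and 148 RPKM in osnat10, against 70.3, 26.8 and 13.1 RPKM in WT, where osnat10 replicate 2 and WT replicate 1 nearly met (log2 fold change 1.92, SE 0.56, limma adjusted p = 0.14). A margin as narrow was found for PRX125, at 50.8, 78.3 and 67.2 RPKM in osnat10, against 50.7, 18.1 and 39.3 RPKM in WT (log2 fold change 0.95, SE 0.37, limma adjusted p = 0.219).

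Apart from prx71, described above, the other members among the 10 most abundant overlapped between genotypes. The gene prx54 stood at 51.9, 62.7 and 55.7 RPKM in osnat10, against 45.1, 52.5 and 28.1 RPKM in WT (log2 fold change 0.48, SE 0.24, limma adjusted p = 0.321). For prx86, annotated like prx27 as a P7-type peroxidase, the values were 109, 92.4 and 85.6 RPKM in osnat10, against 57.2, 104 and 73.3 RPKM in WT (log2 fold change 0.33, SE 0.24, limma adjusted p = 0.48). WT replicate 2 of prx86 lay within the osnat10 range. For prx59 the values were 98.0, 95.3 and 72.3 RPKM in osnat10, against 87.2, 139.6 and 81.2 RPKM in WT (log2 fold change -0.18, SE 0.24, limma adjusted p = 0.72), and without WT replicate 2 its log2 fold change was 0.06. For prx16 they were 47.2, 54.7 and 59.2 RPKM in osnat10, against 51.2, 85.0 and 60.2 RPKM in WT (log2 fold change -0.26, SE 0.21, limma adjusted p = 0.548). In both genes WT replicate 2 was the highest library. The gene prx64 had nearly the same levels in both genotypes, with 53.0, 77.4 and 44.7 RPKM in osnat10, against 53.0, 79.7 and 44.5 RPKM in WT (log2 fold change -0.01, SE 0.28, limma adjusted p = 0.987), and the sign of so small a value turned when single libraries were left out.

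The spread of the peroxidase genes lay mostly within WT. The median SD of the log2 level was 0.24 in osnat10 and 0.62 in WT over the tested members, beside 0.18 in osnat10 and 0.36 in WT over all tested genes. The SD was larger in WT for 72 of the 82 tested members, against 77.9% of all tested genes. A 4-fold or larger spread between libraries of the same genotype was found for 1 tested member in osnat10 and for 15 in WT. WT replicate 3 was the lowest WT library for 37 of the 82 members, against 26.8% of all tested genes, WT replicate 2 for 26, against 20.8%, and WT replicate 1 for 19, against 52.4%. The WT library that was lowest for most genes was thus lowest for the fewest peroxidases.

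**Figure D3:**
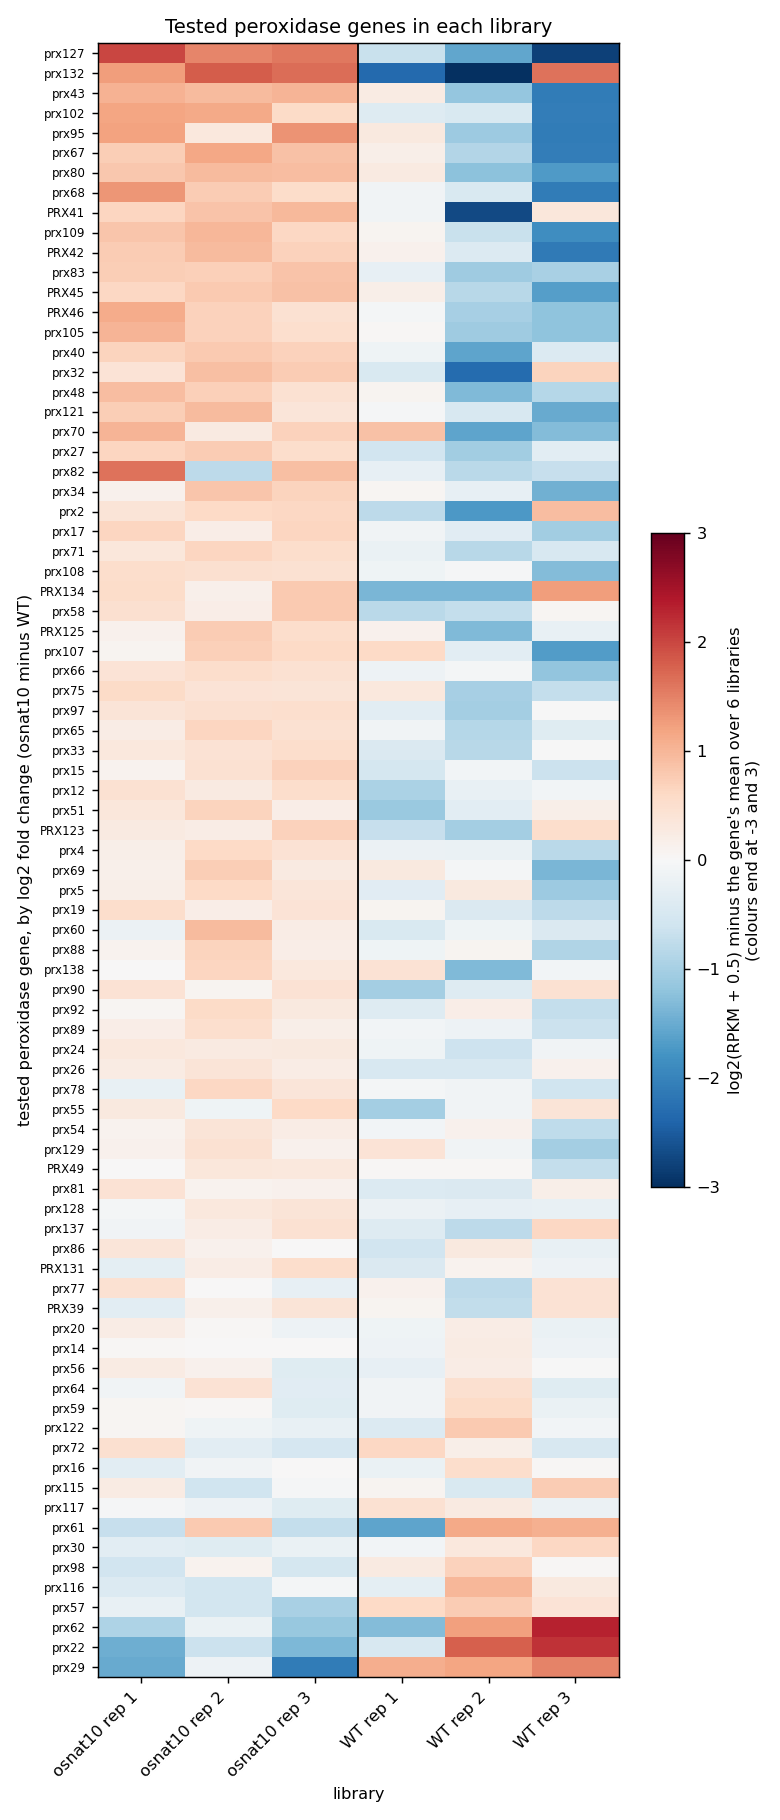
Log2(RPKM + 0.5) of each of the 82 tested peroxidase genes in the 6 libraries, osnat10 at the left and WT at the right, as the difference from the gene's mean over the libraries; red is above and blue below that mean, and genes are ordered by log2 fold change. The osnat10 columns are mostly alike, while the lowest WT library changes from gene to gene. It is replicate 3 for 37 genes, replicate 2 for 26 and replicate 1 for 19. The last genes, down to prx29 at -2.51, show the opposite colours.

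Several members, chosen here after their values were seen, show how far WT libraries could part. The last gene given, prx17, was chosen in the same way and had a narrower WT spread. The gene prx132 stood at 32.1, 47.0 and 43.1 RPKM in osnat10, against 2.20, 0.315 and 41.4 RPKM in WT (log2 fold change 3.17, SE 1.22, limma adjusted p = 0.219). WT replicate 3 of prx132 was within the osnat10 range and the other WT libraries were far below it. In PRX134 WT replicate 3 was again the high WT library, with 33, 23 and 44 reads in osnat10, against 0, 0 and 70 reads in WT. The gene prx32, annotated as similar to peroxidase 64, which in Arabidopsis is needed for the lignin of the Casparian strip in roots, stood at 24.1, 34.3 and 31.1 RPKM in osnat10, against 12.9, 3.26 and 28.9 RPKM in WT (log2 fold change 1.40, SE 0.65, limma adjusted p = 0.285). Here too WT replicate 3 reached the osnat10 range. The gene prx17, annotated as similar to peroxidase 72, which in Arabidopsis takes part in stem lignification, stood at 25.6, 18.7 and 25.7 RPKM in osnat10, against 15.1, 12.6 and 7.56 RPKM in WT, with no overlap (log2 fold change 1.00, SE 0.27, limma adjusted p = 0.124).

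Members that lie beside each other were then set side by side. Locus numbers place the 104 genes on 12 chromosomes, and 65 of them fall into 21 neighbourhoods in which each locus number is within 1000 of the next, a distance in identifiers and not in bases that was chosen after the data were seen. Neighbouring copies can be alike in sequence, and how the authors' counting treated reads that match several copies is not given, so the values of single neighbours are less certain than their sum. On chromosome 3, PRX42, prx43, PRX45, PRX46 and prx48 all had 3 osnat10 libraries above 3 WT libraries, with log2 fold changes of 1.40 to 2.00. Their summed RPKM was 158, 169 and 177 in osnat10, against 108, 50.8 and 27.9 in WT. PRX46 and prx48 had only 1 WT library at 0.5 RPKM and passed the filter through their osnat10 libraries. On chromosome 5, all 7 genes from prx65 to prx71 had positive log2 fold changes, of 0.77 to 1.85, and the libraries of 5 of them did not overlap. The summed RPKM of these 7 genes was 395, 498 and 439 in osnat10, against 297, 179 and 196 in WT. Over all tested genes, 59.9% had a positive log2 fold change. Without overlap, 17.2% of them lay above WT and 7.79% below. Among the 82 tested members, 67 were positive, 39 lay above without overlap and 4 below. The runs on chromosomes 3 and 5 kept all signs under the other scalings.

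Other neighbourhoods stood apart from these. On chromosome 4, the run from prx59 to prx64 held 6 genes, of which 5 were tested and 1 had a positive log2 fold change, with a range of -1.50 to 0.67 and overlap in every gene. Its summed RPKM was 160.1, 196 and 127 in osnat10, against 146, 245 and 152 in WT. On chromosome 2, prx30 and prx29 were both lower in all osnat10 libraries, with log2 fold changes of -0.57 and -2.51, while prx27 and prx26, at locus numbers not far off, were both higher in all of them, with 1.30 and 0.57. On chromosome 10, prx127 lies next to prx128, whose log2 fold change was 0.43 (SE 0.19, limma adjusted p = 0.264) beside the 3.36 of prx127. On chromosome 7, prx97 and prx95 were both higher in all osnat10 libraries, with summed RPKM of 155, 95.1 and 172 in osnat10, against 83.5, 34.7 and 29.5 in WT. Whether the difference between neighbourhoods exceeds that between other neighbouring genes was not tested.

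**Figure D4:**
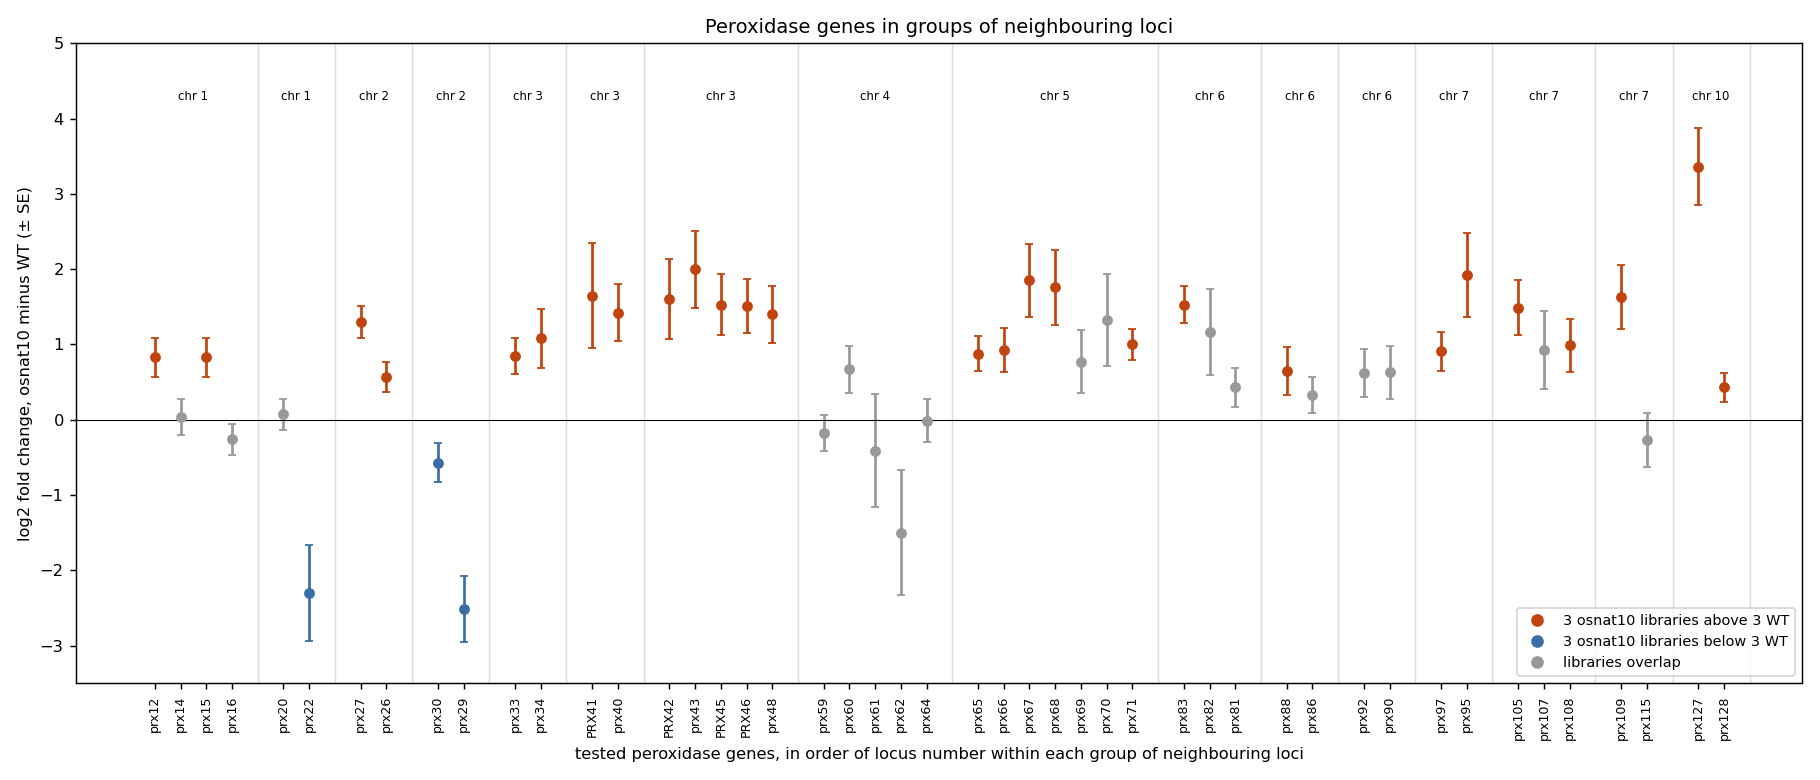
Log2 fold change (osnat10 minus WT, of RPKM + 0.5; points) with its standard error (bars) for tested peroxidase genes in neighbourhoods with at least 2 tested members, in order of locus number. Red points have all 3 osnat10 libraries above all 3 WT libraries, blue points the reverse and grey points overlap; the run on chromosome 3 lies between 1.40 and 2.00, and the run on chromosome 4 between -1.50 and 0.67.

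The annotation offers another grouping, which the choice of members did not use. The 9 members with peroxidase 1 in their description are prx8, prx33, prx34, PRX42, prx43, PRX46, prx108, prx128 and PRX131, and they lie on several chromosomes. Of these, 8 were tested and 7 had all osnat10 libraries above all WT libraries, beside 39 of the 82 tested members and 17.2% of all tested genes, with log2 fold changes of 0.31 to 2.00 over the 8. The exception was PRX131, whose description names cationic peroxidase 1, while the others read similar to peroxidase 1. PRX131 stood at 0.545, 1.00 and 1.34 RPKM in osnat10, against 0.445, 0.874 and 0.656 RPKM in WT. This grouping was made after the values were seen, and 3 of its members belong to the run on chromosome 3.

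Genes that work beside the peroxidases were counted by lists of words in symbols and descriptions. Of 66 genes for sources of hydrogen peroxide (NADPH oxidases, superoxide dismutases, germin-like and oxalate oxidases, polyamine oxidases), 47 were tested, 0 were called in limma, and the median log2 fold change was 0.46. Without overlap, 11 (23.4%) lay above WT, against 17.2% of all tested genes, and 2 (4.26%) below, against 7.79%. At an unadjusted p under 0.05, 9 (19.1%) were higher, against 13.6% of all tested genes, and 3 (6.38%) lower, against 5.69%. These counts lay near the background, and other measures lay further from it. The mean RPKM was 2-fold or more higher for 9 (19.1%), against 7.54%, and 2-fold or more lower for 3 (6.38%), against 4.36%. A positive log2 fold change was found for 37 (78.7%), against 59.9%. The summed RPKM of the list was 3643, 3649 and 3646 in osnat10, against 2614, 2257 and 3421 in WT. GLP8-3, a germin-like protein of disease resistance, stood at 115 ± 41.3 RPKM in osnat10 and 44.4 ± 16.3 in WT (SD, n = 3 each; limma adjusted p = 0.117), and OsGLP5-2, another germin-like protein gene, at 10.2, 8.93 and 13.8 RPKM in osnat10, against 3.69, 2.62 and 6.89 RPKM in WT (limma adjusted p = 0.117). Of 74 partners in lignin and suberin formation (laccases, dirigent proteins, enzymes of monolignol synthesis), 53 were tested, 0 were called in limma, and the median log2 fold change was 0.70. Without overlap, 18 (34.0%) lay above WT, against 17.2% of all tested genes, and 1 (1.89%) below, against 7.79%. At an unadjusted p under 0.05, 18 (34.0%) were higher, against 13.6%, and 1 (1.89%) lower, against 5.69%. The dirigent-type gene Os07g0643800 stood at 2.15 ± 0.922 RPKM in osnat10 and 0.0729 ± 0.0362 in WT (limma adjusted p = 0.0552). Its WT values of 0.115, 0.0533 and 0.0507 RPKM lie under the minimum of 0.5 RPKM. It was thus tested only because it was high in osnat10. OsCAD8B, a cinnamyl alcohol dehydrogenase gene, lay the other way at 5.32 ± 0.954 RPKM in osnat10 and 19.4 ± 5.69 in WT (limma adjusted p = 0.0552).

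Peroxide-removing enzymes outside the family, which are ascorbate and glutathione peroxidases, peroxiredoxins and catalases, had a median log2 fold change of 0.03 over 23 tested of 27 genes. Of these 0 were called in limma. At an unadjusted p under 0.05, 1 (4.35%) was higher, against 13.6% of all tested genes, and 2 (8.70%) lower, against 5.69%. Without overlap, 2 (8.70%) lay above WT, against 17.2%, and 3 (13.0%) below, against 7.79%. The 2 with the smallest p were lower in osnat10. APX8, the ascorbate peroxidase of the thylakoid membrane, stood at 205 ± 22.1 RPKM in osnat10 and 426 ± 83.5 in WT (SD, n = 3 each; limma adjusted p = 0.0905), and Os08g0522400, annotated as similar to APX6, at 24.9 ± 0.828 RPKM in osnat10 and 38.0 ± 2.1 in WT (limma adjusted p = 0.103). A further 45 genes carry a peroxidase description under other symbols, some of them thioredoxin peroxidases or haloperoxidases, and 30 were tested. Their median log2 fold change was 0.34, and 0 were called in limma. At an unadjusted p under 0.05, 10 (33.3%) were higher, against 13.6% of all tested genes, and 3 (10.0%) lower, against 5.69%. Without overlap, 13 (43.3%) lay above WT, against 17.2%, and 4 (13.3%) below, against 7.79%. Os05g0499300 stood at 123 ± 32.1 RPKM in osnat10 and 45.8 ± 18.1 in WT (limma adjusted p = 0.0921), and POXgX9 at 33.6 ± 5.11 RPKM in osnat10 and 14.1 ± 5.21 in WT (limma adjusted p = 0.101). The members by symbol are therefore not every haem peroxidase gene in the table.

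Roots and shoots were not separated, so markers of both were read beside the peroxidases. The summed RPKM of 6 root marker genes was 855, 989 and 955 in osnat10, against 634, 743 and 408 in WT, which did not overlap. The root protein genes RCc3 and RCc2 stood at 590 ± 69.2 and 73.3 ± 20.5 RPKM in osnat10, against 224 ± 108 and 26.9 ± 8.49 RPKM in WT (SD, n = 3 each), while the root silicon transporter genes LSI1 and LSI2 stood at 166 ± 20.4 and 104 ± 19.4 RPKM in osnat10, against 214 ± 67.0 and 130 ± 45.2 RPKM in WT. Of the 6 root markers 4 were tested, with a median log2 fold change of 0.58, and 1 was at 0 in every library. In limma 0 of the 4 were called, and 2, RCc2 and RCc3, were higher at an unadjusted p under 0.05, against 13.6% of all tested genes. The authors' deposited table has 2 of 4 root markers higher at an adjusted p under 0.05, against 2.42% of all genes there. The summed RPKM of 20 leaf marker genes was 9989.7, 10664 and 8727 in osnat10, against 26476, 9118 and 4993 in WT, so WT replicate 1 was far above and WT replicate 3 below all other libraries, and 4 of the 20 were at 0 in every library. The 15 leaf markers tested had a median log2 fold change of 0.93, above the 0.78 of the peroxidases, and 0 were called in limma or had an unadjusted p under 0.05. A positive log2 fold change was found for 10 of the 15 (66.7%), against 59.9% of all tested genes. In either direction, 0 of the 15 were without overlap, against 17.2% above and 7.79% below. Mean RPKM was higher in osnat10 for 5 of the 20, against 46.6% of all genes, and lower for 11, against 36.0%. The summed RPKM is led by Rubisco genes, and antenna genes differed among themselves. CAB1R, picked with its values known, had the largest log2 fold change of the leaf markers, 3.20. The other tested antenna genes ran from -0.16 in CabE to 2.49 in CAB2R. CAB1R had 337, 363 and 428 RPKM in osnat10, against 1064, 5.10 and 10.9 RPKM in WT (limma adjusted p = 0.347). WT replicate 1 of CAB1R was above, and WT replicates 2 and 3 far below, every osnat10 library. The part of root and leaf content in the peroxidase values was not tested.

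**Figure D5:**
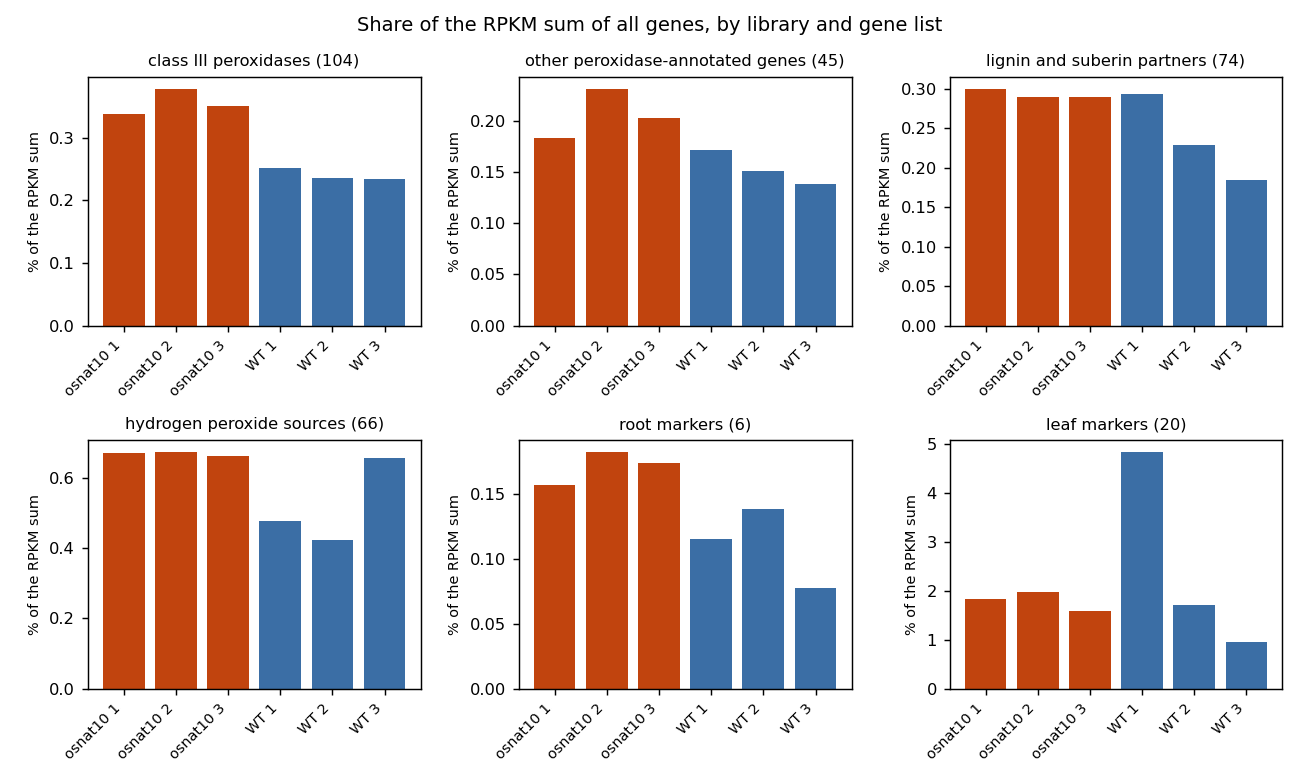
Share of the RPKM sum of all genes (%, bars from 0) held by the class III peroxidases and 5 other gene lists, 1 bar per library, osnat10 in red at the left and WT in blue at the right. The peroxidase share is 0.337 to 0.378% in osnat10 and 0.234 to 0.252% in WT. The other peroxidase-annotated genes, the hydrogen peroxide sources and the root markers are also separated. For the hydrogen peroxide sources the margin is narrow, with 0.663% in osnat10 replicate 3 and 0.655% in WT replicate 3. The lignin and suberin partners and the leaf markers overlap, and the leaf markers reach 4.84% in WT replicate 1.

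The authors' deposited table gives a further estimate from the same libraries, which is not independent of the RPKM. For prx127 the authors' deposited table has a log2 fold change of 3.65 (SE 0.80, adjusted p = 0.000498), for prx83 one of 1.42 (SE 0.35, adjusted p = 0.00257) and for prx27 one of 1.18 (SE 0.27, adjusted p = 0.000949). For prx102 and prx71 the authors' deposited table has 2.03 (SE 0.66, adjusted p = 0.037) and 0.86 (SE 0.28, adjusted p = 0.0393). On the lower side the authors' deposited table has -2.77 for prx22 (SE 0.54, adjusted p = 5.14e-05), -2.41 for prx29 (SE 0.47, adjusted p = 4.48e-05) and -1.69 for prx57 (SE 0.47, adjusted p = 0.00945). The untested prx63 has -2.56 in the authors' deposited table (SE 0.81, adjusted p = 0.0323), and it rests there on WT replicates 2 and 3 by the reads given above. Over the tested members the median log2 fold change in the authors' deposited table was 0.60, beside -0.02 over all genes compared.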

How the data were processed

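Per the file headers, the authors deposited RPKM per gene for 6 RNA-seq libraries, and a table of their own comparison with the column names of DESeq2. From that table come the mean normalised signal, log2 fold change, p-value and adjusted p-value, all computed by the authors. The adjusted p was missing for 5086 genes and left missing. The tools STAR 2.5.3a, deepTools and DESeq2 and the build IRGSP-1.0 are listed in the submitters' processing notes without their roles. Which read counter, strand setting and annotation were used is not given in the sources used here, so overlapping, antisense and near-identical genes stay uncertain.

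Reads were recovered from the steps of low RPKM values and the authors' mean signal, and 99.98% of values were whole within 0.05 reads. Floors and read numbers cover counting error only. Log2(RPKM + 0.5) was tested with limma 3.58.1 in R 4.3.3 (empirical Bayes with an intensity trend, no covariates), on genes at 0.5 RPKM or more in at least 3 libraries. P-values were adjusted by Benjamini-Hochberg over all 24380 tested genes, and the step was tested on simulated data. Tables and plots used Python 3.11.15, numpy 2.4.6, pandas 2.3.3, scipy 1.17.1 and matplotlib 3.10.9. Alternatives were other pseudocounts, filters, scalings, library weights and variance priors, a replicate block, and leaving out each library.

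Members and lists were chosen with earlier results of these data known. Of 115 word matches for hydrogen peroxide sources, 49 came through parts of other words (carbohydrate, germination) and were left out after the data were seen. Named genes were prx127, prx83 and prx27, the 10 most abundant members, the 8 with the smallest limma p in each direction, any called in limma, the 3 extremes in each direction of the authors' deposited table at an adjusted p under 0.05, and the 2 with the smallest p of each other list. Sequences and coordinates were not used here.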

Additional observations from a re-analysis of the deposited data

How the results depend on the processing

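Over the other settings run for 25 tested named members, direction turned only for prx59 without WT replicate 2 (log2 fold change 0.06, with -0.33 to 0.06 when any 1 library was left out) and for prx64 (0.04 without osnat10 replicate 1, 0.16 without osnat10 replicate 3 and 0.23 without WT replicate 2, with a lowest value of -0.23 without osnat10 replicate 2). The adjusted p of prx127 ranged from 0.000498 to 0.316, that of prx83 from 0.00224 to 0.345 and that of prx27 from 0.000949 to 0.323. Members called higher numbered 1 (prx127) with a pseudocount of 1, 20 with array weights, 5 in the authors' deposited table and 0 to 23 with 1 library left out. Members called lower numbered 2 with array weights, 4 in the authors' deposited table and 0 to 3 with 1 library left out. The median log2 fold change of the members was 0.59 with no filter, 0.60 in the authors' deposited table and 0.65 to 0.85 with 1 library left out. The percentage point difference in share was added after the data were seen and stayed at 0.103 to 0.123.

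Over all genes, calls higher and lower in osnat10 numbered 51 and 57 under median of ratios scaling, 843 and 509 with array weights, and 655 and 1026 in the authors' deposited table. After quantile normalisation 24 were lower, and with a pseudocount of 0.1, 19 were higher. With 1 library left out, 8 to 1532 were higher and 0 to 1181 lower. The cause was not tested. Library weights were 0.271 in WT replicate 1 and 1.47 to 2.52 in osnat10.

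With the replicate block, 16 genes were called higher and 4 lower, and 0 of them were members. Same-numbered libraries of the genotypes deviated together with r of -0.059, -0.026 and 0.126 across genes, so the numbers were not taken to pair them.

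A fit that leaves a genotype with 2 libraries assumes that these vary like the others. With 3 libraries a side, the exact test cannot go below 0.1, and members with few reads, such as prx127 in WT, have imprecise folds.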
